A study of Mus musculus with 5 samples.

Results

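Klf2, Klf4 and Klf5 were taken from the direct RNA sequencing data of mouse embryonic stem cells (mESCs) by reading every adenosine position on an exon of these genes (mm10, GENCODE M21, strand of the call). In the METTL3 inhibition dataset 258 of 471848 deposited positions belonged to them, 256 on Klf2, 2 on Klf4 and 0 on Klf5. In the Mettl5 dataset there were 204 of 195787, all on Klf2. The genes were chosen by the measured m6A levels in the inhibitor comparison, in which one Klf2 site in the 3′ UTR stayed methylated. Its levels under inhibition are therefore a description and carry no test, and so do those of the Klf2 sites beside it.

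The METTL3 inhibition dataset held 1 library of E14 mESCs treated with 30 µM STM2457, a small-molecule inhibitor of the methyltransferase METTL3, for 48 h, and 1 library of cells given the solvent, 0.025% v/v DMSO. Both came from a line carrying 2C::3xtbGFP-PEST and Zscan4::mCherry-PEST reporters, a doxycycline-driven APOBEC1-YTH fusion that was not induced, and a homozygous FKBP12-based tag on the C-terminus of METTL3, also not induced. Both of these libraries are labelled WT for genotype, but by the methods of the study their control is not an unmodified line. The Mettl5 dataset held 1 library of untreated WT mESCs and 1 library each of the Mettl5 knockout clones #1 and #2, from other lines made in earlier work. By the labels, each dataset was a single batch and the batches differ. Cells grew in serum with LIF, with 2i inhibitors used for maintenance. Mettl5 and Mettl3 had 0 positions in the files, so the deletion could not be checked from these data.

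Klf2, Klf4 and Klf5 are zinc-finger transcription factors that bind GC-rich promoters and enhancers and hold embryonic stem cells in the naive state. Klf4 acts downstream of LIF and STAT3, Klf2 is supported by inhibition of MEK, Klf5 is also needed in the early embryo, and the functions of these factors overlap. N6-methyladenosine (m6A) is written on mRNA by the METTL3–METTL14 complex, mostly at the motif DRACH (any base but C, then A or G, then the methylated A, then C, then any base but G), and METTL5 methylates 18S rRNA.

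An m6A site was a position with more than 25 valid calls in every library of its dataset and a level, the m6A calls as a percent of the valid calls, of 25% or more in at least 1 library. Klf2 (ENSMUSG00000055148.7, plus strand of chromosome 8, 72319033 to 72321656) had 12 sites of 6201 in the METTL3 inhibition dataset and 11 of 1886 in the Mettl5 dataset, 10 of them in both. The transcript Klf2-201 (ENSMUST00000067912.7) has 3 exons and 1847 nt, and its stop codon ends at nt 1110. Of the 12 sites, 6 lay in the coding sequence and 6 in the 3′ UTR. The sequences around the sites are shown because the motif is the feature the enzyme reads. Each is named by the genomic position of the adenosine, on the plus strand of chromosome 8 of mm10, with the 5 bases centred on that adenosine in capitals. They were read from the GENCODE M21 transcript and are written as DNA. The first 6 are in the coding sequence and the last 7 in the 3′ UTR.

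72319487: gttGGACTtca
72319511: attGGACGgtc
72319652: cctGGACCcgc
72319776: cacGGACCgcg
72320841: cacAGACCctt
72320914: gacACATGtag
72320994: aacAGACTgct
72321009: attGGACCtta
72321017: ttaGGACAgag
72321050: aaaTGACTctg
72321080: cagTGACTgaa
72321145: aatTGACTtat
72321248: ataAGACTatg

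The last one was a site in the Mettl5 dataset alone. The site that stayed methylated is 72320994, called the kept site from here on. With STM2457 and DMSO, 10 of the 12 Klf2 sites had DRACH, or 83.3%, beside 88.6% of all 6201 sites. The exceptions were 72319511, whose motif differs from DRACH at its last base, and 72320914, which sits on the A of the ATG codon just before the stop codon.

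Coverage decided what could be seen of each gene. Reads start at the poly(A) tail, and the deposited positions had 25 or more valid calls in every library of their dataset. On Klf2 the median was 227 valid calls per position in DMSO (range 74 to 271) and 182 in STM2457 (62 to 228). In the Mettl5 dataset WT had 73 (47 to 84), clone #1 had 30 (25 to 36) and clone #2 had 41 (25 to 49). Klf2 was thus well above the median position of the METTL3 inhibition dataset (64 and 51 valid calls) and close to the floor in clone #1. Exon 1 of Klf2 had 0 covered positions, exon 2 had 110 and exon 3 had 146, and coverage stopped 305 nt before the annotated end of the transcript. Total valid calls ranged from 17897440 in clone #1 to 71574467 in DMSO, and failed calls, those under the confidence filter, were between 8.31% and 9.15% of the calls of a library.

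Klf4 (ENSMUSG00000003032.8, minus strand of chromosome 4, 55527143 to 55532466) was covered at 2 neighbouring adenosines of its 3′ UTR, 55527280 and 55527281. Neither had an m6A call, with 0 of 25 valid calls at both in DMSO and 0 of 30 and 0 of 31 in STM2457. These counts allow a level of up to 13.7% in DMSO and up to 11.6% and 11.2% in STM2457 (upper ends of exact binomial 95% intervals). Neither position had more than 25 valid calls in DMSO, so Klf4 had no site by the rule, and a level at or above 25% elsewhere on Klf4 was not measurable at this depth. Klf5 (ENSMUSG00000005148.8, plus strand of chromosome 14, 99298691 to 99315036) had no covered position in any library, and no level can be given for it.

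In DMSO-treated cells the Klf2 transcript carried its highest m6A levels in a cluster just after the stop codon. The kept site, 75 nt past the stop codon, was at 97.7% (259 valid calls, exact binomial 95% interval 95% to 99.1%). Then, from 90 nt to 226 nt past the stop codon, came 72321009 at 81.7%, 72321017 at 36.8%, 72321050 at 78.0%, 72321080 at 54.7% and 72321145 at 82.7%, each with 231 to 250 valid calls. The coding sequence sites were lower, from 31.4% at 72320914 to 42.0% at 72319487. Every coding sequence site of Klf2 was therefore below every 3′ UTR site but 72321017. The gaps between neighbouring sites ran from 8 nt to 564 nt, and the widest, between 72319776 and 72320841, spans the junction of exons 2 and 3.

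Klf2 positions outside these sites were close to unmethylated. Over the 244 covered positions that were no site, the median was 0.504% for DMSO and 0.557% for STM2457. Among them, 72321248 (23.7%) and 72319862 (23.2%) in DMSO were the values just under the 25% threshold, and 72320914 (31.4%) and 72319652 (33.3%) the values just above it. Klf2 had 21 covered DRACH positions, 10 in the coding sequence with 4 sites and 11 in the 3′ UTR with 6 sites. Summed over calls, the DRACH positions of the 3′ UTR were at 42.5% in DMSO and those of the coding sequence at 19.4%, whereas positions with another motif were at 1.08% and 1.59%.

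Within DRACH, the base before the adenosine went with the level on Klf2. All 10 DRACH sites of Klf2 had G there, among 17 such positions with a median of 36.8% in DMSO. The 4 positions with A there reached at most 4.29%. The motif did not fix the level: AGACT stood at 97.7% at the kept site and at 23.7% at 72321248, and AGACC at 39.6% at 72320841 and at 1.26% at 72320194. GGACC ran from 5.96% at 72319469 to 81.7% at 72321009, and TGACT from 54.7% to 82.7% over its 3 positions. The 4 DRACH positions within 50 nt of an exon junction (72319443, 72319469, 72319475 and 72320194) were between 0% and 5.96%, and 2 of them had A before the adenosine. The DRACH site nearest to a junction, 72319487 at 62 nt, was at 42.0%. These are descriptions of neighbouring positions on one transcript, not independent measurements.

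**Figure D1:**
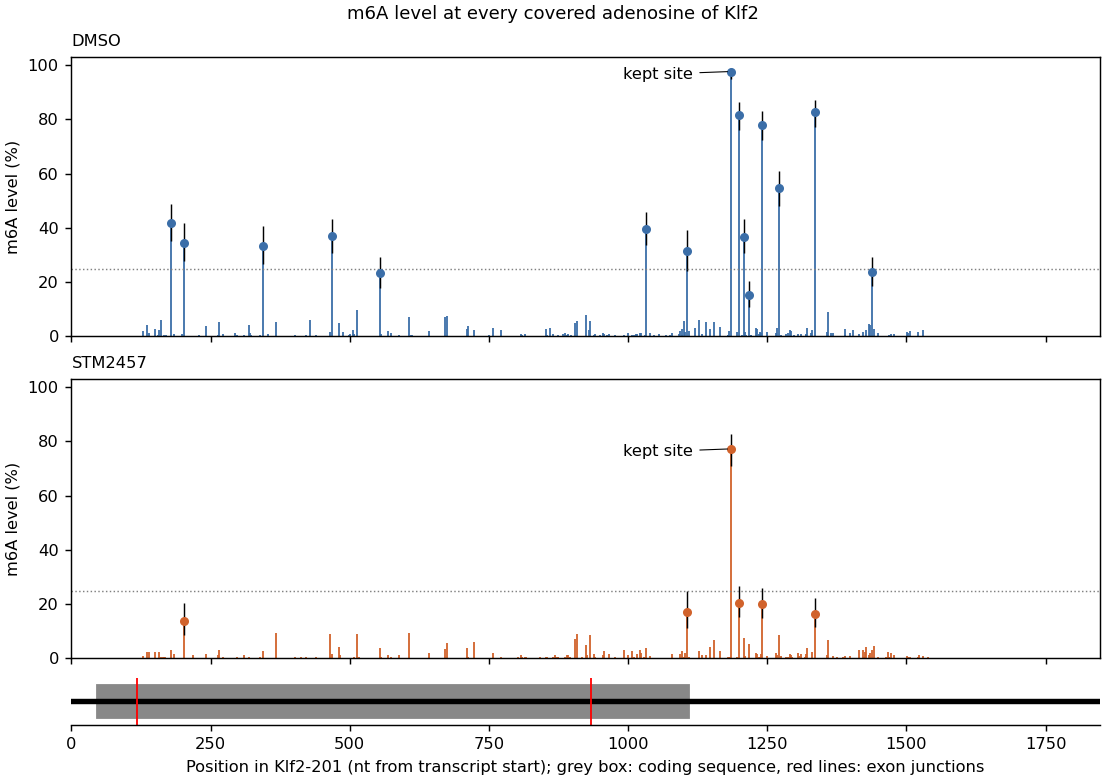
m6A level in percent of valid calls at every covered adenosine of Klf2 along the transcript Klf2-201 (nt), in DMSO (top) and STM2457 (middle), with points and exact binomial 95% intervals where the level was 10% or more and the 25% threshold dotted. The kept site stood at 97.7% and 77.3%, and in STM2457 the next highest Klf2 position was at 20.4%.

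With STM2457, m6A was lower at each of the 12 Klf2 sites, and the kept site retained most of its own DMSO level. With 1 library per condition, and with these values having chosen the genes, the comparison is descriptive. The mean level over the 12 Klf2 sites was 54.1% in DMSO and 16% in STM2457, beside 56.9% and 16% over all 6096 sites that were at 25% or more in DMSO. As a share of the DMSO level, the decrease (the relative decrease) averaged 74.3% over the Klf2 sites (SD over sites 22.2) and 74.7% over all sites (SD 21.5). Klf2 as a whole was thus near the average site of this dataset. A decrease of at least 50% was seen at 10 of the 12 Klf2 sites, beside 89.5% of all sites, and one of at least 75% at 8 Klf2 sites, beside 63.7%. Without the kept site, the other 11 Klf2 sites averaged 50.1% in DMSO and 10.4% in STM2457, with a mean decrease of 79.1% (SD 15.2).

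The coding sequence sites with DRACH were almost without m6A in STM2457. At 72319487 the level went from 42.0% of 212 valid calls to 2.92% of 171, with intervals of 35.3% to 48.9% and 0.956% to 6.69%. At 72319652 it went from 33.3% of 189 to 2.67% of 150, and at 72319776 from 36.9% of 233 to 1.66% of 181. At 72320841 it went from 39.6% of 255 to 3.83% of 209. All 4 decreased by 90.3% to 95.5%.

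Both sites without DRACH decreased less. The level at 72319511 went from 34.6% of 191 valid calls to 13.6% of 147, a decrease of 60.6%. At 72320914 it went from 31.4% of 156 (24.2% to 39.3%) to 17.2% of 128 (11.1% to 24.9%), a decrease of 45.3%. Failed calls were frequent there, at 39.8% of calls in DMSO and 38.5% in STM2457, beside medians of 8.73% and 7.67% over all Klf2 positions, and at 72319511 they were 19.1% and 18.8%. The part of failed calls in these smaller decreases was not tested.

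The 3′ UTR sites around the kept site kept some methylation. The level at 72321009, 15 nt beyond it, went from 81.7% of 240 valid calls to 20.4% of 206. At 72321050 it went from 78.0% of 250 to 19.9% of 216, and at 72321145 from 82.7% of 231 to 16.4% of 201. These were the highest Klf2 levels in DMSO after the kept site, and after STM2457 they still exceeded every coding sequence site but 72320914, which was above 72321145. The remaining 3′ UTR sites ended lower, 72321017 at 7.58% of 211 (from 36.8% of 250) and 72321080 at 8.57% of 210 (from 54.7% of 247). At 72321248, just under the threshold in DMSO, the level was 23.7% of 266 and 3.15% of 222. Over the DRACH positions of the 3′ UTR the level of summed calls went from 42.5% to 14.5%, and over those of the coding sequence from 19.4% to 1.95%.

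The kept site went from 97.7% of 259 valid calls to 77.3% of 211 (interval 71.0% to 82.7%), a fall of 20.4 points and a relative decrease of 20.9%. It was the 1 Klf2 site with a decrease under 25%, beside 4.38% of all sites, and the 1 Klf2 site still at 25% or more in STM2457, beside 20.9%. The next values on Klf2, outside that limit, were 45.3% at 72320914 and 60.6% at 72319511. Failed calls there were 2.26% in DMSO, 3.21% in STM2457, 4.76% in WT, 17.1% in clone #1 (6 calls) and 6.12% in clone #2. Reads with a different base were 0 in all 5 libraries, calls of another modification were 0 in all 5, and deletions were at most 1 per library. Adenosines from 6 nt before to 10 nt after it were at 0% to 2.01% in DMSO and at 0% to 0.676% in STM2457, so the calls were placed on a single adenosine.

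On another scale, chosen after seeing the data, the kept site was near the median of all sites. The reads without m6A there numbered 6 of 259 in DMSO and 48 of 211 in STM2457. Expressed as the odds of m6A (m6A calls over other valid calls, 0.5 added to each), the fall was 11.6-fold (95% interval 4.98 to 26.9), against a median of 12.1-fold over all 6096 sites and of 15.6-fold over the other 11 Klf2 sites. Of all sites, 3.79% had a smaller relative decrease than the kept site, while 47.5% had a smaller fall in odds. On Klf2, 3 sites had a smaller fall in odds, 72319511 (3.30-fold), 72320914 (2.18-fold) and 72321017 (6.91-fold), and the largest was 29.9-fold at 72319776. Sites that started as high as the kept site also tended to keep methylation. Among the 56 sites at 95% or more in DMSO with at least 100 valid calls in both libraries, the median level in STM2457 was 49.9% (quartiles 41.2% and 61.0%, range 17.2% to 96.9%), and 3 were above the kept site. Their median fall in odds was 30.3-fold, and 7 of them had a smaller one than the kept site. Within this group the kept site was thus among those with smaller falls in odds and higher levels in STM2457. It had been chosen for staying methylated.

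**Figure D2:**
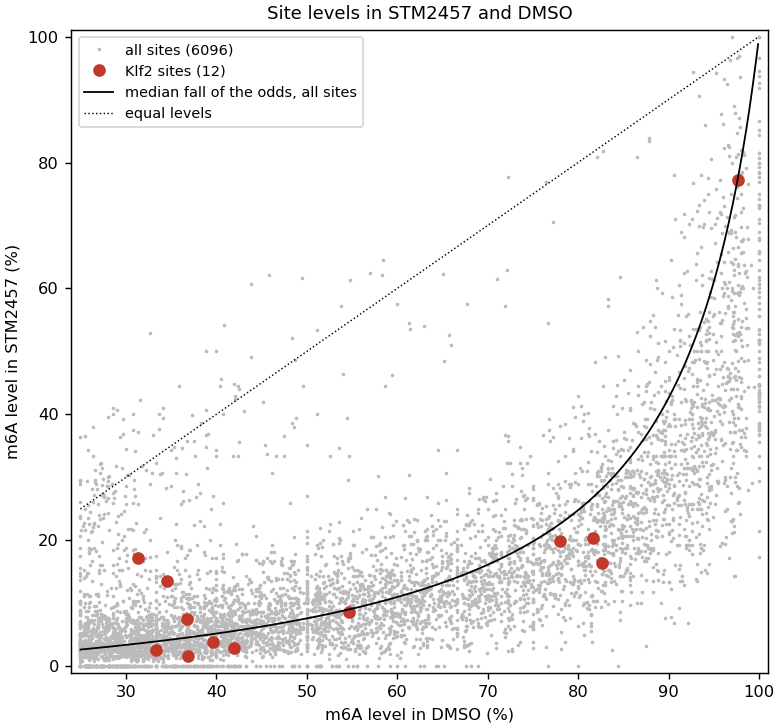
m6A level in STM2457 (vertical, percent) against that in DMSO (horizontal, percent) for all 6096 sites at 25% or more in DMSO (grey) and the 12 Klf2 sites (red). The solid line marks the median 12.1-fold fall of the odds and the dotted line equal levels. The kept site, at the upper right, lies by the solid line. Both Klf2 sites without DRACH and the DRACH site 72321017 lie above the line at the lower left.

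The sites of other genes whose pair of levels was nearest to that of the kept site, by Euclidean distance in percentage points over sites with at least 100 valid calls in both libraries, were on Polr1d, Pcbp1 and Rbmxl1. Polr1d, which encodes a subunit shared by RNA polymerases I and III, had a GGACT site at position 147078867 of chromosome 5 with 97.4% in DMSO and 76.6% in STM2457, a distance of 0.720 points from the Klf2 site. Pcbp1, which encodes a poly(C)-binding protein, had a GAACT site at position 86525067 of chromosome 6 with 95.2% and 75.9%, a distance of 2.81 points. Rbmxl1 had one at position 78506312 of chromosome 8 with 97.5% and 80.9%, but it is a near copy of another gene and its reads are uncertain. Over genes with at least 3 sites, 863 in all, the mean levels nearest to those of Klf2 (54.1% and 16%) were on Utp3 (9 sites, 54.0% and 15.8%), Slc7a6os (3 sites, 54.4% and 16.5%) and Wipi2 (6 sites, 53.6% and 16.3%). Each comparison rests on 1 library per condition.

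The rule that chose the genes did not use the Mettl5 knockout clones, though earlier results of these data were known. Each Klf2 site was tested in the clones against WT. The test was Fisher's exact test (two-sided), adjusted by Benjamini-Hochberg over the 1886 sites of the dataset. No Klf2 site was called, 0 of 11 passing an adjusted p of 0.05 in one direction in each clone, beside 0.265% of all sites called lower and 0% called higher. Over the Klf2 sites and both clones, Fisher's exact test gave adjusted p-values from 0.144 to 1. An unadjusted p below 0.05 in at least 1 clone was found at 2 Klf2 sites, beside 12.3% of all sites, and in both clones at 0. Averaged over the 11 Klf2 sites, the level was 42.3% in WT, beside 40.9% in clone #1 and 47.0% in clone #2, and over all sites it was 44.0%, 46.4% and 46.4%. The level was above WT in both clones at 6 Klf2 sites, beside 45.1% of all sites, and below WT in both at 3, beside 23.3%. The 25% threshold favours these directions and nothing is read from the counts. Sites 72319511, 72320914 and 72321248 passed it through a clone alone, and 72319776 and 72320841 through WT alone. With 1 WT library and few reads, these tests compare libraries.

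The kept site was high in all 3 of these libraries. WT had 91.2% of 80 valid calls (82.8% to 96.4%), clone #1 had 96.6% of 29 (82.2% to 99.9%) and clone #2 had 100% of 46 (92.3% to 100%). The difference from WT was 5.3 points in clone #1 (Newcombe 95% interval -9.13 to 14) and 8.75 points in clone #2 (-0.148 to 17). By Fisher's exact test the adjusted p was 1 and 0.613, and in clone #2 the p before adjustment was 0.047. A change of the kept site in the clones was not detectable at this depth, and a fall of more than 9.13 points lies outside the interval in either clone.

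The lowest unadjusted p was at 72319776 in the coding sequence. WT had 25.4% of 71 valid calls, clone #1 had 0% of 29 (up to 11.9%) and clone #2 had 19.0% of 42. Clone #1 lay below WT by Fisher's exact test before adjustment (p = 0.00129) but not after it (adjusted p = 0.144), and clone #2 overlapped WT (adjusted p = 0.968). Neither clone passed, and this position was a site only through WT, which favours lower values in the clones.

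The other coding sequence sites varied without a common direction. The level at 72319487 was 42.4% in WT, with 50% and 51.4% in clones #1 and #2. At 72319511 it was 19.4%, 23.1% and 37.1% in the same order, and at 72320841 27.6%, 23.5% and 18.4%. At 72320914 clone #1 was lower than WT (10.7% beside 23.6%) and clone #2 higher (31.4%), and it was a site only through clone #2. These values rest on 26 to 34 valid calls in clone #1 and 35 to 49 in clone #2, and all intervals of a site overlapped.

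None of the other 3′ UTR sites passed the test in either clone. At 72321009 the level was 82.1% in WT, with 72.4% and 75% in clones #1 and #2. At 72321050 it was 64.6%, 68.8% and 68.1%, and at 72321080 45.0%, 40.0% and 45.0%. These 3 sites moved by less than 10 points in either clone. At 72321017 the values were 30.1%, 38.9% and 47.9%, and at 72321248 13.4%, 26.5% and 23.5%. By Fisher's exact test the adjusted p at these sites was between 0.630 and 0.965, and 72321248 was a site only through its level in clone #1. The order of high and low sites on Klf2 was close to that in DMSO. Among sites covered in both, WT and DMSO each had the kept site highest, followed by 72321009, 72321050 and 72321080.

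**Figure D3:**
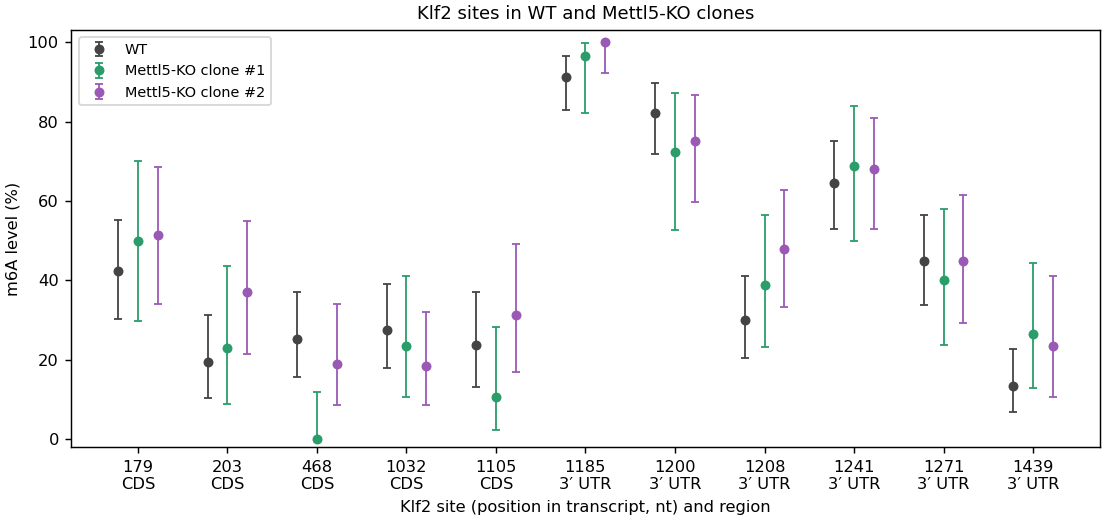
m6A level (percent of valid calls) at the 11 Klf2 sites of the Mettl5 dataset in WT and in clones #1 and #2 of the Mettl5 knockout, with exact binomial 95% intervals. Sites are in transcript order and named by their position in Klf2-201 (nt). The intervals of the 3 libraries overlap except at nt 468, where clone #1 had 0 of 29 calls and lies below WT, and the kept site (nt 1185) is between 91.2% and 100% in each.

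Levels on Klf2 were higher in DMSO than in the untreated WT library at 8 of the 10 sites with both values. The difference ran from -0.443 points at 72319487 to 15.2 points at 72319511, with a median of 8.71 points. Over all 1450 such sites, 85.9% were higher in DMSO and the median difference was 8.93 points, so Klf2 was near the rest of the transcriptome in this. All these sites were selected by a level of 25% or more in DMSO and not in WT, for instance 72319511 and 72320914, which tilts the difference toward DMSO. Cell line, batch and sequencing run differ between these libraries and cannot be told apart.

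The depth of the Klf2 transcript differed by less than 1.5-fold between STM2457 and DMSO. The scaled depth, the median valid calls over the positions of a gene per 1000000 valid calls of the library, was 3.17 in DMSO and 3.37 in STM2457, a fold of 1.06 beside a median of 1.08 over 2515 genes with at least 20 covered positions. At least 1.5-fold higher depth was found for 14% of genes and at least 1.5-fold lower depth for 5.65%, and Klf2 was in neither group. With 1 library per condition there is no test.

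In the Mettl5 knockout clones the depth of Klf2 was lower than in WT. WT had 3.31, clone #1 had 1.68 and clone #2 had 2.10, a fold of 0.506 and of 0.633, while the median gene had 1.09 and 1.13. Among the 970 genes compared, 23 or 2.37% were at least 1.5-fold lower in both clones, and Klf2 was one of them, while 8.04% were at least 1.5-fold higher in both. Of these genes, 0.722% had a lower fold than Klf2 in clone #1 and 7.53% in clone #2. Only positions with 25 or more valid calls in every library could be compared, and the median WT position had 52. Genes under this floor in any library are missing, including those that fell far from a low WT depth. The shares therefore cover the remaining genes alone. With scaling by the median ratio over genes the Klf2 folds were 0.465 and 0.562, and 4.43% of genes were at least 1.5-fold lower in both clones. Over the last 500 covered bases they were 0.518 and 0.594, so the lower depth was not limited to the 5′ part of the transcript. This has no test, since WT was 1 library and both clones were compared with it. In bulk RNA, fewer cells with Klf2 and less Klf2 RNA per cell cannot be told apart, and the floor of 25 valid calls leaves out any Klf2 position that was shallower in clone #1. Klf4 and Klf5 had no depth value in this dataset.

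**Figure D4:**
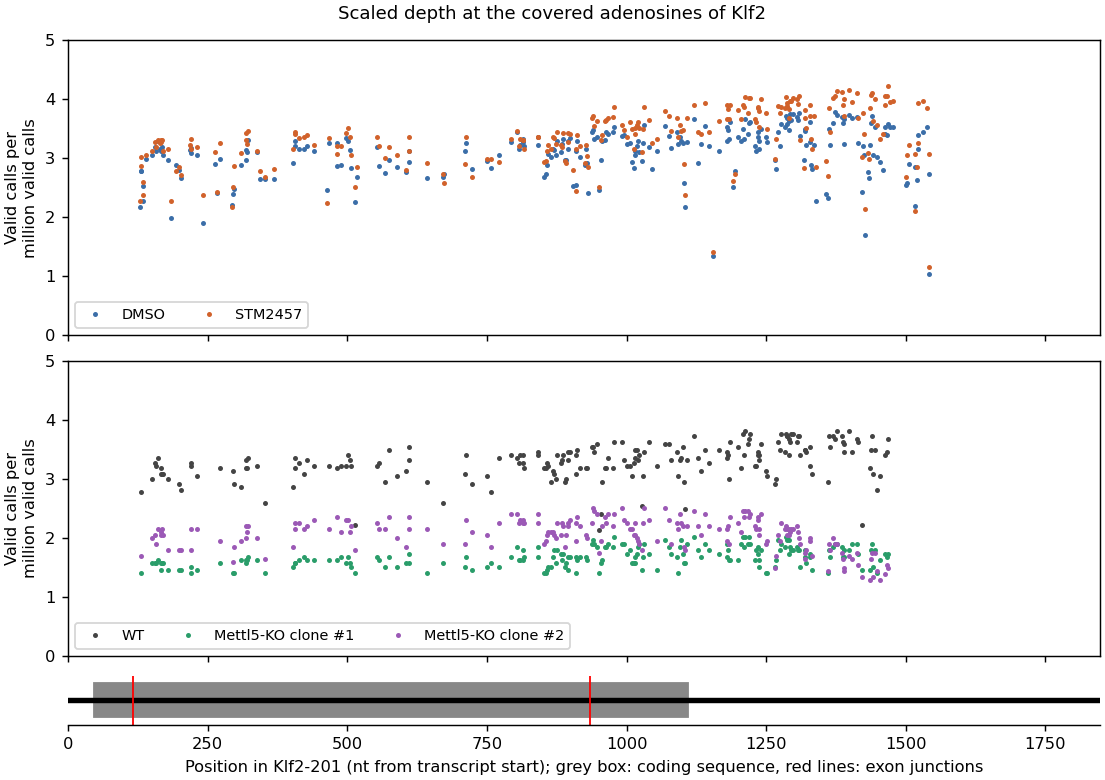
Valid calls per 1000000 valid calls of the library at each covered adenosine of Klf2 along the transcript (nt), for DMSO and STM2457 (top) and for WT and both Mettl5-KO clones (middle). DMSO and STM2457 overlap (medians 3.17 and 3.37), and both clones lie below WT along most of the transcript (medians 1.68 and 2.10 beside 3.31).

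The genes that act with Klf2 in LIF signalling and the naive network were followed by a list of 27. Of these, 11 were covered in the METTL3 inhibition dataset and 10 in the Mettl5 dataset. The LIF receptor genes Lifr and Il6st, the kinase and factor genes Jak1 and Stat3, the feedback inhibitor Socs3 and the factors Tfcp2l1 and Tbx3 had no covered position in either. The 8 genes with sites in the METTL3 inhibition dataset had 41 sites, of which 35 fell by at least 50% with STM2457 (background 89.5%), with a median decrease of 76.7% beside 80.2% over all sites. The most sites were on Sox2 (12), a core pluripotency factor, Esrrb (9), an orphan nuclear receptor of the naive state, and Zfp42 (7), a zinc-finger marker of naive cells. Their mean levels went from 61.9% to 24.3%, from 57.7% to 13.3% and from 59.7% to 15.7%. At 2 sites of the list, beside 4.38% of all sites, the level did not decrease by 25% or more. Both were on Tdgf1, which encodes a co-receptor of Nodal, and both started low, at 28.0% in DMSO with 28.6% in STM2457 and at 25% with 20.7%. In the clones, 1 of 42 sites on 7 genes was called lower in both by Fisher's exact test, also on Tdgf1, and 0 were called higher, beside 0.265% and 0% of all sites.

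Depth of the list moved little with STM2457, with 1 of 11 genes at least 1.5-fold lower, beside 5.65% of all genes (Nanog, a core pluripotency factor, 0.583), and 1 at least 1.5-fold higher, beside 14% (Nr0b1, a nuclear receptor, 1.57). In the clones, 1 of 10 was at least 1.5-fold lower in both, beside 2.37% of the genes compared, Zfp42 with 0.455 in clone #1 and 0.458 in clone #2. The median folds of the list were 1.03 and 1.1, beside 1.09 and 1.13 for the median gene, so the list as a whole lay just below the median gene. The core factors had folds nearer to WT or above it, Sox2 with 0.769 and 1.13, Nanog with 1.04 and 1.07 and Pou5f1 with 1.51 and 1.28. The other covered members were Sall4 (1.32 and 1.75), Lin28a (1.45 and 2.02), Dppa5a (1.24 and 1.0), Tdgf1 (0.988 and 1.15), Utf1 (1.02 and 0.902) and Mycn (0.909 and 0.902). Of the 4 markers of the primed state, 2 were covered in the clones, Dnmt3b with folds of 1.67 and 1.73 and Otx2 with 0.961 and 1.30, and Fgf5 and Pou3f1 had no covered position. The part of cell state in the depth of Klf2 was not tested.

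**Figure D5:**
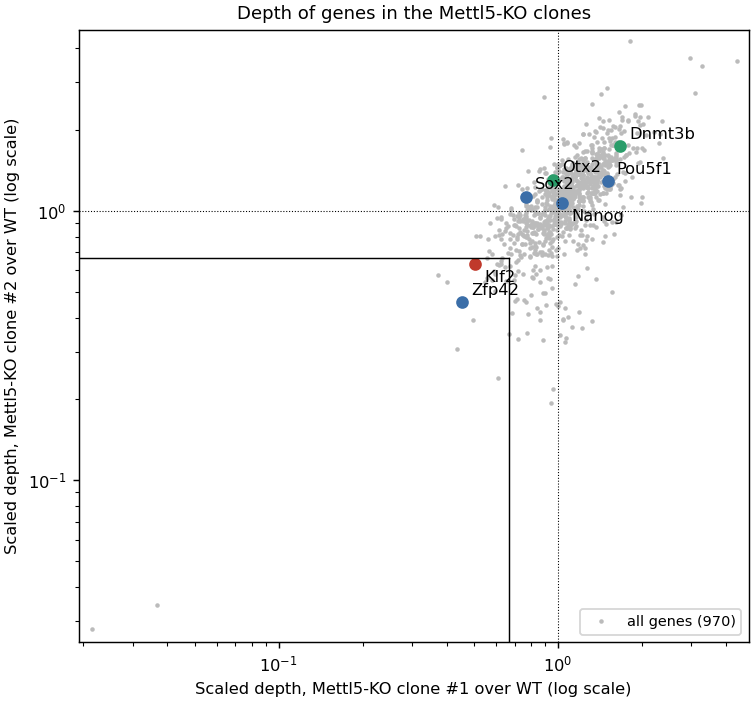
Scaled depth in Mettl5-KO clone #1 (horizontal) and clone #2 (vertical) over WT, both on log scales, for 970 genes (grey), Klf2 (red), naive and core factors (blue) and primed markers (green), named after their values were seen. Klf2 (0.506 and 0.633) and Zfp42 (0.455 and 0.458) lie inside the lower left box, which marks folds of at least 1.5 down in both clones. Both axes share the WT library.

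Of the defining markers of the labelled cell type, 9 of 10 pluripotency genes were covered in the METTL3 inhibition dataset and 8 of 10 in the Mettl5 dataset. Markers of fibroblasts (5 genes), endoderm (5), mesoderm (3) and the 2-cell-like state (2) had no covered position in either dataset, and of 4 neural genes Tubb3 alone was covered, in the METTL3 inhibition dataset. Of 23 other Klf and Sp family genes, Klf16 alone was covered, with 27 positions in the METTL3 inhibition dataset, 0 sites and a depth fold of 1.23 with STM2457. Klf2 was thus the one gene of the family with a site by the rule, and a gene without covered positions may still be expressed below this depth.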

How the data were processed

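Total RNA of mESCs was sequenced directly (RNA004 chemistry, poly-T adapters). The authors demultiplexed them with WarpDemuX, called bases and m6A and aligned to mm10 with dorado, and counted calls per position with modkit pileup (versions 1.4.0 and 0.4.4 per the submitters' processing notes). The deposited counts per position are valid, m6A, unmodified, other modified, failed, deleted and different-base calls, and the deposited percent is the m6A share of valid calls. Failed calls are outside it, and priming at the poly(A) tail favours 3′ ends and abundant transcripts. Total valid calls were 71574467 in DMSO, 54051900 in STM2457, 22025887 in WT, 17897440 in clone #1 and 19532075 in clone #2.

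Positions were matched to GENCODE M21 exons on the strand of the call. Genes and lists were chosen with earlier results of these data known. Every Klf2 site, the 3 sites and 3 genes nearest to it in levels, list genes with a site of 25% or more in STM2457 that decreased by under 25%, and the 3 list genes with most sites were named. STM2457 was set beside DMSO without a test. Clones were tested against WT with Fisher's exact test (scipy 1.17.1 under Python 3.11.15, with pandas 2.3.3 and numpy 2.4.6), checked on simulated counts. Labels do not say whether the clones' libraries came from separate cultures beyond being separate clones, so p-values measure the difference between libraries. Intervals are exact binomial (95%), for the difference of 2 levels Newcombe's, and cover counting error only. Depth calls used a fold of 1.5. Alternatives were other coverage and level thresholds, DRACH positions alone, failed calls in the denominator, RefSeq-linked exons, each clone left out and other depth scalings.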

Additional observations from a re-analysis of the deposited data

How the results depend on the processing

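Of 46 alternative values, 38 were counted as the same as the reported result, which allowed some change in size. Among these, the 12 Klf2 sites of the METTL3 inhibition dataset became 15 at a level of 10%. The 11 sites of the Mettl5 dataset became 9 with failed calls in the denominator. The other 8 values moved, as follows. Klf2 had 5 sites in place of 12 in the METTL3 inhibition dataset when a level of 50% was asked for. In the Mettl5 dataset the 11 sites became 4 at a level of 50%, 20 at a level of 10% and 0 when at least 50 reads were asked for, since clone #1 never exceeded 36 valid calls on Klf2. The mean relative decrease of 74.3% became 69.9% over summed calls and 78.5% over DRACH sites alone. Measured as the fall in odds, which was chosen after seeing the data, the number of Klf2 sites with a smaller fall than the kept site went from 0 to 3, and the share of all sites from 3.79% to 47.5%. Called Klf2 sites in the clones stayed at 0 under each alternative tried, with either clone left out (0 to 0) included. This says little about low sites. At 72319776, with 25.4% in WT, even 0 of 29 m6A calls in clone #1 did not pass (Fisher's exact test, adjusted p = 0.144). The depth alternatives for the clones, and the scaling by nuclear protein-coding positions, were also chosen after seeing the data, and under them the Klf2 fold stayed between 0.447 and 0.518 in clone #1 and between 0.557 and 0.640 in clone #2. No paired analysis was possible, since DMSO, STM2457 and WT had 1 library each and the clone numbers define no pairs with WT. The clones are limited by depth, with 25 to 36 valid calls per Klf2 position in clone #1, and by the single WT library.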

Other observations

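Calls of other modifications than m6A were rare on Klf2, with 303 calls in DMSO (0.532% of valid calls, beside 0.453% over all positions), 253 in STM2457 (0.546%, beside 0.417%), 66 in the WT library (0.446%, beside 0.778%), 40 in that of clone #1 (0.654%, beside 0.587%) and 45 in that of clone #2 (0.549%, beside 0.610%). The Klf2 position with the highest share of them was 72320759 in the coding sequence in 4 of the 5 libraries, a TCATT context that is no DRACH motif. The share there was 11.4% of 176 valid calls in DMSO, 8.51% of 47 for WT, 16% of 25 for clone #1 and 17.6% of 34 for clone #2. In STM2457 the highest was 72321236 in the 3′ UTR with 11.2% of 116. Failed calls were frequent at both, 31% of calls at 72320759 and 54.9% at 72321236 in DMSO, and m6A was called in 1 of 176 and 3 of 121 valid calls there.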
